A study of Mus musculus with 6 samples.

Results

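The INK4 family of cyclin-dependent kinase inhibitors was followed in mouse embryonic fibroblasts that overexpressed the unrelated inhibitor p27. The family comprises the 4 genes Cdkn2a, Cdkn2b, Cdkn2c and Cdkn2d, which were found by symbol among the 24062 genes of the count table, and all 4 passed the filter on low counts that left 14090 genes for testing. The p27 OE group held 3 libraries from cells transduced with a lentivirus that overexpresses p27, the product of Cdkn1b. The EV control group held 3 libraries whose abbreviation the labels leave unexplained. Only the EV control titles carry a dataset tag, which the titles do not explain. Whatever the tag stands for cannot be told apart from the group. Both groups were C57BL/6 embryonic fibroblasts harvested at day 4, when the labels describe the p27 OE cells as not yet senescent. The labels give no age of the embryos and no promoter of the vector. They also do not say whether libraries of different numbers stem from different cultures, so p-values measure the spread between these libraries.

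INK4 proteins are small ankyrin-repeat proteins that bind the kinases CDK4 and CDK6 and keep them from pairing with D-type cyclins, which leaves the retinoblastoma protein active and holds cells in the first gap phase. Cip/Kip proteins such as p27 act on cyclin-kinase complexes instead. Cdkn2b encodes p15INK4b and Cdkn2a encodes p16INK4a, and these genes lie side by side in a locus that Polycomb complexes silence in young cells and that becomes active as fibroblasts age in culture. Cdkn2a also encodes ARF, a protein read in another frame from a separate first exon, which inhibits the p53 ligase MDM2. Cdkn2c encodes p18INK4c and Cdkn2d encodes p19INK4d, which are known for expression in dividing and differentiating cells.

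Cdkn2a, Cdkn2b and Cdkn2c lie on chromosome 4 and Cdkn2d on chromosome 9 (GRCm38, the assembly that mm10 names), all on the reverse strand, and no annotated gene overlaps any of them in GENCODE. Cdkn2a spans chr4:89274471-89294653 and Cdkn2b spans chr4:89306299-89311039, 11645 bases apart. Cdkn2c spans chr4:109660876-109667189 and Cdkn2d spans chr9:21288410-21291407. The coding transcripts of Cdkn2a start with different first exons, of 207 bases at chr4:89281986-89282192 for p16INK4a and of 320 bases at chr4:89294334-89294653 for ARF, and share 575 bases of their further exons. The deposited count is 1 number per gene, so reads of p16INK4a and ARF cannot be told apart.

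The 250 bases before the start sites are shown for Cdkn2a, because its count adds up transcripts from 2 separate starts, and for its neighbour Cdkn2b. The sequences are from RefSeq (GRCm38.p6), on the reverse strand, 5′ to 3′, and capitals mark matches on either strand to the E2F letters TTTCCCGC, TTTGGCGC, TTTCGCGC or TTTGCCGC, to the cyclic AMP response element TGACGTCA and to the Sp1 GC box GGGCGG. Their positions are chr4:89294620-89294869 for the ARF start of Cdkn2a, chr4:89282193-89282442 for its p16INK4a start and chr4:89311033-89311282 for Cdkn2b. Starts are those of RefSeq, and GENCODE places the ARF and Cdkn2b starts slightly further out, just inside these windows.
Cdkn2a, ARF start: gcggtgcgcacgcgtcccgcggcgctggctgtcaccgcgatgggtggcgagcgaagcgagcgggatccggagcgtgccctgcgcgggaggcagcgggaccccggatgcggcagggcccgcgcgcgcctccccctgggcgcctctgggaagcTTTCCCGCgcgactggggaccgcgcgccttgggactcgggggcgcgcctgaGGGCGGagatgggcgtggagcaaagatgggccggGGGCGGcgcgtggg
Cdkn2a, p16INK4a start: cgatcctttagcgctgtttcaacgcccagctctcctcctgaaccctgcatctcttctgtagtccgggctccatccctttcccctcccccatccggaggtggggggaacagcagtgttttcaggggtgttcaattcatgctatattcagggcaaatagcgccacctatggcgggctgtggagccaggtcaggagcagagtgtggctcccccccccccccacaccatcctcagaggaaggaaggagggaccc
Cdkn2b: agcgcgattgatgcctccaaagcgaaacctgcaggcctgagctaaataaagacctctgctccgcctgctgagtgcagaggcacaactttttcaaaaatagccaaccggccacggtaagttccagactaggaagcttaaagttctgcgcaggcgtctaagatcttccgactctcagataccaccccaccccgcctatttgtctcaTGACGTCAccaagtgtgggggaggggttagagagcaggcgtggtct
The 2 starts of Cdkn2a differ in composition, with 78.4% G and C before the ARF start and 60.0% before the p16INK4a start, against a median of 52.4% over 32851 promoter windows of the same length. The ARF window holds 1 E2F match, found in 1.86% of all windows, and 2 GC boxes, found in 32.7%, while the p16INK4a window holds none of the 3 motifs. The Cdkn2b window holds 1 cyclic AMP response element, found in 1.55% of all windows. The motifs were picked after the sequences were seen, and a match describes letters only.

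Library totals ran between 38533998 and 44518389 counts in p27 OE and between 34920728 and 52098220 counts in EV control. Levels are in CPM, counts divided by library sizes that edgeR's TMM method had scaled for composition. All 8 fibroblast markers were detected, with a summed level of 58060 to 59940 CPM in p27 OE and 54050 to 59110 CPM in EV control. The 5 macrophage markers with a row summed to 38.8 to 71.8 CPM in p27 OE and 42.6 to 53.8 CPM in EV control, and the 5 endothelial markers to 4.70 to 5.30 CPM in p27 OE and 2.94 to 4.58 CPM in EV control. The 6 epithelial markers summed to 9.41 to 9.69 CPM in p27 OE and 10.6 to 12.1 CPM in EV control, the 5 neural markers to 155.5 to 220.9 CPM in p27 OE and 121.0 to 138.2 CPM in EV control, and the 6 skeletal muscle markers, of which Myf5 and Ckm had no counts, to at most 1.23 CPM in p27 OE and 0.704 CPM in EV control. The neural sum, led by the intermediate filament gene Nes, and the endothelial sum did not overlap between the groups and were higher with p27 OE, and the epithelial sum did not overlap either and was lower. Their part in the results was not tested. On the first principal component, which held 58.9% of the variance, EV control 1 and p27 OE 1 lay far from the rest, so results are also given without them. In bulk RNA, fewer cells of a kind and less RNA per cell cannot be told apart. Cdkn1b itself was at 419, 978 and 460.0 CPM in p27 OE 1, 2 and 3, against 49.9 to 52.2 CPM in EV control, so each library matched its label, and p27 OE 2 carried the most.

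None of the 4 INK4 genes was called as different between p27 OE and EV control by the test across all genes. Cdkn2b and Cdkn2a had slightly higher means in p27 OE and Cdkn2c and Cdkn2d lower ones, and in each gene the groups overlapped. In edgeR's quasi-likelihood fit without pairing, adjusted p-values were between 0.696 and 0.876, and the share called over all 14090 genes was 0%. The smallest unadjusted p of a member was 0.0695, while 1017 genes of the table were under 0.05 before adjustment and 89 were called by DESeq2, no INK4 gene among them. A second fit, with the library number as a block, compares libraries of the same number and called 7.43% of genes but no INK4 gene. Its calls were 535 higher and 512 lower, or 483 higher and 736 lower with upper-quartile scaling. Neither fit called Cdkn1b itself, 12.1-fold higher in p27 OE (edgeR adjusted p 0.180 without the block and 0.0873 with it). A gene left uncalled can thus still differ. The median log2 fold change was -0.04 over the 4 members and -0.0013 over all tested genes, and the middle 50% of tested genes lay between -0.12 and 0.12, a range that also held Cdkn2a and Cdkn2b.

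**Figure D1:**
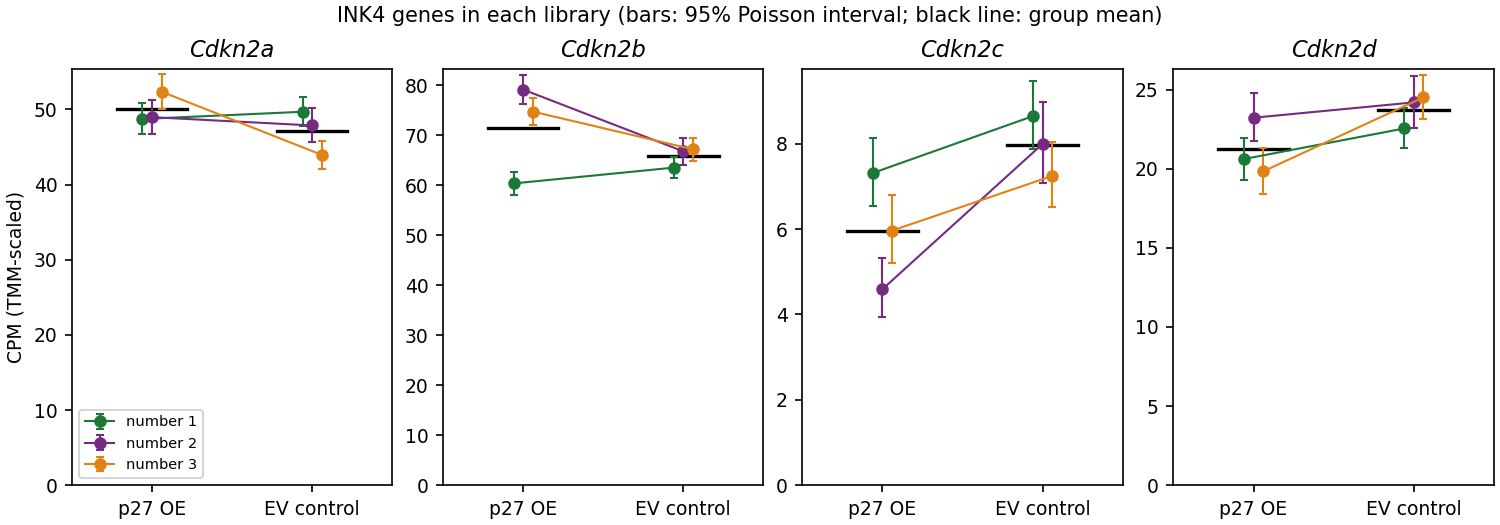
Level of each INK4 gene in CPM (vertical axis, from 0) in the 3 p27 OE libraries and the 3 EV control libraries, with lines joining libraries of the same number, bars for the 95% Poisson interval and black lines for group means. The groups overlap in all 4 genes, and the lowest Cdkn2c value, 4.59 CPM, is that of p27 OE 2.

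Cdkn2a, the gene of p16INK4a and ARF, stood at 48.7, 49.0 and 52.4 CPM in p27 OE 1, 2 and 3, against 49.7, 47.9 and 44.0 CPM in EV control 1, 2 and 3. EV control 3 was the lowest and p27 OE 3 the highest, and the other 4 libraries lay between 47.9 and 49.7 CPM. The mean was 50.02 ± 2.03 CPM in p27 OE and 47.2 ± 2.93 CPM in EV control (SD, n = 3 each), a log2 fold change of 0.08 ± 0.08 (SE) with an edgeR adjusted p of 0.872. The 95% interval of the fold, was 0.936 to 1.20. The log2 ratio within the libraries numbered 1, 2 and 3 was -0.03, 0.03 and 0.25, so the pairs did not move in the same direction. Averaged over both groups, the number means of Cdkn2a spanned 0.04 on the log2 scale, the least of the members. Its level fell from number 1 to number 3 in EV control and rose in p27 OE, and these changes offset each other in the average. Without the libraries numbered 1 its log2 fold change was 0.14 (edgeR adjusted p 0.220 without pairing), and with the block and without those numbered 3 it was 0.0016.

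Cdkn2b, the gene of p15INK4b, stood at 60.3, 79.1 and 74.7 CPM in p27 OE 1, 2 and 3, against 63.5, 66.7 and 67.2 CPM in EV control 1, 2 and 3. The libraries p27 OE 2 and 3 were above every EV control library, and p27 OE 1 was below every one of them. The mean was 71.4 ± 9.82 CPM in p27 OE and 65.8 ± 2.01 CPM in EV control (SD, n = 3 each), a log2 fold change of 0.12 ± 0.11 (SE) with an edgeR adjusted p of 0.876 and a 95% interval of the fold of 0.907 to 1.30. The spread within p27 OE, 13.8% of the mean, exceeded the counting error of 1.82% to 1.91% in those libraries. Without the libraries numbered 1 the log2 fold change was 0.20 ± 0.06, with an adjusted p of 0.0504 in edgeR without pairing and 0.0400 with the block. The share of all genes called in those fits was 9.54% and 12.4%.

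Cdkn2c, the gene of p18INK4c, stood at 7.32, 4.59 and 5.97 CPM in p27 OE 1, 2 and 3, against 8.65, 7.997 and 7.25 CPM in EV control 1, 2 and 3. The libraries p27 OE 2 and 3 were below every EV control library, while p27 OE 1 lay just above EV control 3, within their counting intervals of 6.55 to 8.15 and 6.52 to 8.03 CPM. It is the member with the fewest reads, 176 to 467 counts per library, and had the largest difference of the family: a mean of 5.96 ± 1.36 CPM in p27 OE and 7.96 ± 0.702 CPM in EV control (SD, n = 3 each). The log2 fold change was -0.42 ± 0.19 (SE) with an edgeR adjusted p of 0.696, larger in size than in 90.1% of tested genes. Its 95% interval of the fold ran from 0.544 to 1.03.

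The 3 pairs all had less Cdkn2c in p27 OE, with log2 ratios of -0.24, -0.79 and -0.28 for numbers 1, 2 and 3, and 23.7% of tested genes were likewise lower in all 3. With the block the log2 fold change was -0.43 ± 0.14, the unadjusted p 0.00764 and the adjusted p 0.0730, so Cdkn2c ranked 1475 among 14090 genes and was not called. The library with the least Cdkn2c, p27 OE 2, was also the one with the most Cdkn1b, and a link between them was not tested. Without that library the log2 fold change was -0.26 (adjusted p 0.963). Without the libraries numbered 1 it was -0.53, with an adjusted p of 0.0608 in edgeR without pairing. With the block, a fit on 2 pairs, the edgeR adjusted p was 0.0379. The share of all genes called in those fits was 9.54% and 12.4%. The spread within p27 OE was 22.9% of the mean, against a counting error of 5.48% to 7.54% in those libraries.

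Cdkn2d, the gene of p19INK4d, stood at 20.6, 23.2 and 19.8 CPM in p27 OE 1, 2 and 3, against 22.5, 24.2 and 24.5 CPM in EV control 1, 2 and 3. Libraries p27 OE 1 and 3 were below every EV control library, and p27 OE 2 fell between EV control 1 and 2. The mean was 21.2 ± 1.78 CPM in p27 OE and 23.7 ± 1.05 CPM in EV control (SD, n = 3 each), a log2 fold change of -0.16 ± 0.09 (SE) with an edgeR adjusted p of 0.759 and a 95% interval of the fold of 0.766 to 1.04. The log2 ratio was -0.13, -0.06 and -0.30 in numbers 1, 2 and 3. Cdkn2d and Cdkn2c were the 2 of 4 members lower in p27 OE in all 3 pairs, and none was higher in all 3, against 23.7% lower and 21.8% higher over all tested genes. Without the libraries numbered 1 the log2 fold change of Cdkn2d was -0.18 (edgeR adjusted p 0.254 without pairing). The largest drop of Cdkn2d was in number 3 and that of Cdkn2c in number 2.

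**Figure D2:**
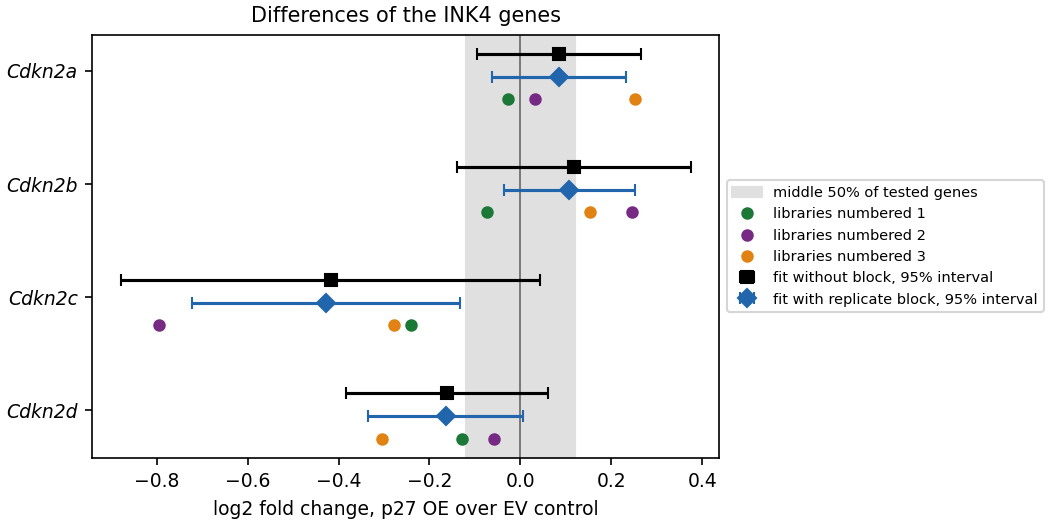
Log2 fold change of each INK4 gene, p27 OE over EV control (horizontal axis), as estimated without and with the replicate block (squares and diamonds, bars for unadjusted 95% intervals), with the ratio in each numbered pair as circles and the middle 50% of all tested genes shaded. Cdkn2a and Cdkn2b sit at 0.08 and 0.12 and Cdkn2c and Cdkn2d at -0.42 and -0.16.

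For a single gene, exact permutation of 3 against 3 libraries has a smallest p of 0.1. On log2 CPM the two-sided exact permutation p was 0.3 for Cdkn2a, 0.4 for Cdkn2b and 0.2 for both Cdkn2c and Cdkn2d. No member had groups that did not overlap, against 14.9% of all tested genes, 6.61% higher and 8.28% lower in p27 OE.

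Longer transcripts draw more counts, so levels of different members were compared in CPM per kilobase of annotated exon. On this scale Cdkn2b was at 51.4 ± 7.06 in p27 OE and 47.3 ± 1.45 in EV control, Cdkn2a at 42.7 ± 1.73 in p27 OE and 40.2 ± 2.50 in EV control, Cdkn2d at 13.5 ± 1.13 in p27 OE and 15.1 ± 0.670 in EV control, and Cdkn2c at 2.22 ± 0.507 in p27 OE and 2.96 ± 0.261 in EV control (SD, n = 3 each). The order was the same in all 6 libraries, and the ratio of Cdkn2b to Cdkn2a ran from 1.04 to 1.36 in p27 OE and from 1.08 to 1.29 in EV control. That order of Cdkn2b and Cdkn2a rests on the length used: with the longest coding transcript of each gene in place of all exons, Cdkn2a came out at 54.3 and Cdkn2b at 49.3 over the 6 libraries. The positions of Cdkn2d and Cdkn2c below them held with the shortest and the longest transcript alike, at 32.5 and 6.29 with the shortest and 15.8 and 2.82 with the longest.

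The summed level of the family per kilobase was 101, 115 and 113 CPM in p27 OE 1, 2 and 3, against 106, 107 and 104 CPM in EV control 1, 2 and 3. The lowest and the highest sums were thus both in p27 OE. Cdkn2c made up 2.70%, 1.48% and 1.96% of the sum in p27 OE 1, 2 and 3, against 3.05%, 2.78% and 2.59% in EV control, and Cdkn2d 13.0%, 12.8% and 11.1% in p27 OE, against 13.6%, 14.3% and 14.96% in EV control. The share of Cdkn2d did not overlap between the groups, although its level in CPM did, and that of Cdkn2c overlapped in p27 OE 1. In CPM, 14.9% of all tested genes did not overlap. A share also depends on the levels of the other members. The ratio of Cdkn2b to Cdkn2c was 15.9, 33.3 and 24.2 in p27 OE, against 14.2, 16.1 and 17.9 in EV control, with p27 OE 2 and 3 above every EV control library. These shares and ratios were looked at after the values were seen and carry no test.

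**Figure D3:**
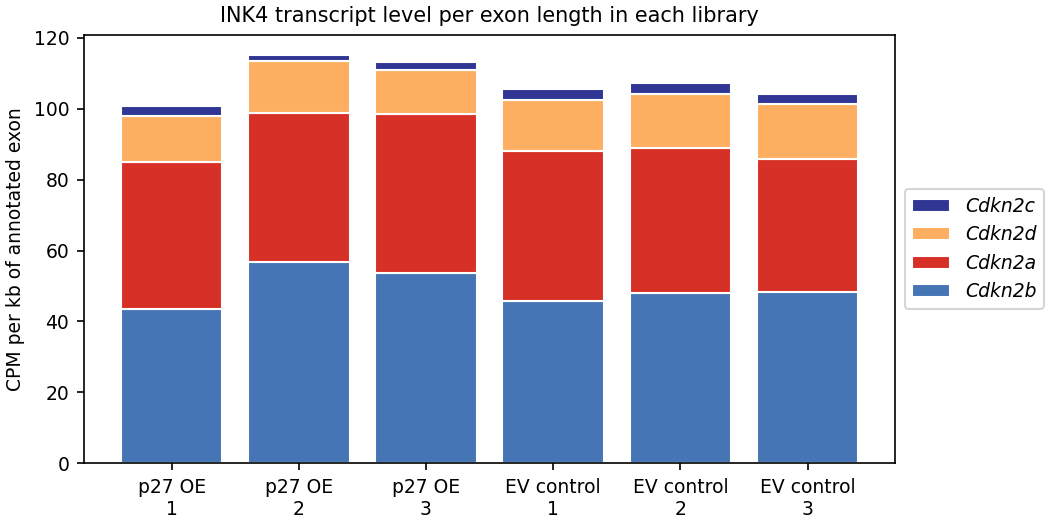
CPM per kilobase of annotated exon (vertical axis, from 0) in each p27 OE and EV control library, stacked by INK4 gene. Cdkn2b and Cdkn2a fill most of each bar and Cdkn2c is the thin top layer, between 1.71 and 3.22.

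The kinase genes Cdk4 and Cdk6, whose products INK4 proteins bind, were not called. Cdk4 was at 312.5, 246.6 and 238.2 CPM in p27 OE 1, 2 and 3, against 330.7, 255.7 and 247.6 CPM in EV control, and its level followed the library number more than the group (block log2 fold change -0.06 ± 0.05, adjusted p 0.507). Cdk6 was far lower, at 9.06 ± 1.81 CPM in p27 OE and 6.95 ± 1.005 CPM in EV control (0.37 ± 0.14, adjusted p 0.138). Per kilobase, the kinases together stood at 0.960, 0.666 and 0.652 times the INK4 sum in p27 OE 1, 2 and 3, against 0.968, 0.739 and 0.738 times in EV control. That sum includes reads of ARF, which acts on MDM2, and the ratio depends on the exon lengths used.

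Ccnd1 and Ccnd2, genes of D-type cyclins that compete with INK4 proteins for these kinases, rose with the block. They were the 2 of 16 kinase, D cyclin, pocket protein and E2F genes that rose, and 0 fell. Over all tested genes, 3.8% were called higher and 3.63% lower. This list and those below were chosen with earlier results of these data known, so their counts are descriptive and test nothing. Without the block edgeR called 0 of the 16, with 2 under an unadjusted p of 0.05, and DESeq2 called Ccnd2. Ccnd2 was at 852, 886 and 854 CPM in the p27 OE libraries and at 608, 657 and 648 CPM in the EV control libraries, in the order of their numbers, and rose by 0.44 ± 0.06 on the log2 scale (SE, n = 3 pairs, edgeR adjusted p 0.000646). Its groups did not overlap. Ccnd1 was at 325, 239 and 226 CPM in p27 OE and at 263, 175 and 165 CPM in EV control, and rose by 0.40 ± 0.06 (edgeR adjusted p 0.00127), with overlapping groups because both libraries numbered 1 were high. Ccnd3 (0.01 ± 0.05) and the retinoblastoma gene Rb1 (-0.04 ± 0.12) were not called. The median of the 16 genes was 0.05, against -0.0012 for all tested genes.

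Polycomb genes, whose products silence the Cdkn2a and Cdkn2b locus, gave no call in either fit: 0 of 16 were called with all 6 libraries and TMM scaling, and 0 had an unadjusted p under 0.05 without the block. With upper-quartile scaling and the block, and with the libraries numbered 1 left out, edgeR called Pcgf2 and Phc1, both lower. Over all genes, the upper-quartile fit called 736 of 14090 lower. The fits without the libraries numbered 1 called 848 of 14036 lower with the block and 650 without it. The list's median was -0.07 with the block. Its members with the highest counts were Phc2, at 110 ± 0.999 CPM in p27 OE and 109 ± 7.04 CPM in EV control, and the ubiquitin ligase gene Rnf2, at 59.9 ± 5.86 CPM in p27 OE and 61.5 ± 4.48 CPM in EV control. Of 26 other transcription regulators linked to INK4 genes, 22 were not called with the block, 2 rose and 2 fell, against 3.8% higher and 3.63% lower over all tested genes, and edgeR called 0 without the block. The growth factor-induced gene Myc rose by 0.56 ± 0.06 (edgeR adjusted p 0.000220) and the histone methyltransferase gene Kmt2a by 0.40 ± 0.10 (adjusted p 0.0463). The chromatin remodelling subunit gene Smarcb1 fell by 0.25 on the log2 scale (adjusted p 0.0201), and so did Twist1, a mesenchymal transcription factor gene (-0.23 ± 0.06, adjusted p 0.0483). The 2 most abundant, the remodelling ATPase gene Smarca4 (0.19 ± 0.06) and Id3 (-0.02 ± 0.05), were not called with all 6 libraries. Smarca4 was called with the block when the libraries numbered 2 were left out. Without the libraries numbered 2, and also without those numbered 3, neither Smarcb1 nor Twist1 was called.

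Among 8 partners and downstream genes of ARF, 2 rose with the block and 0 fell, against 3.8% higher and 3.63% lower over all tested genes, and edgeR called 0 without the block. Neither was called without the libraries numbered 2 or without those numbered 3. Mdm4, which encodes a relative of MDM2 that restrains p53, was at 58.3 ± 0.390 CPM in p27 OE and 48.5 ± 3.08 CPM in EV control and rose by 0.27 ± 0.06 (edgeR adjusted p 0.0221). The p53 gene Trp53 rose by 0.26 ± 0.07 (adjusted p 0.0360, but not called by limma-voom with the block), with 104 ± 9.53 CPM in p27 OE and 87.3 ± 12.1 CPM in EV control. The nucleolar ARF partner gene Npm1 (-0.13 ± 0.06) and the p53 target Cdkn1a (-0.05 ± 0.06) were not called. With the block 3 of 12 proliferation genes rose and 0 fell, beside the same 3.8% and 3.63% over all genes, and edgeR called 0 without the block. The cyclin E genes Ccne2 (0.81 ± 0.18) and Ccne1 (0.24 ± 0.06) and the thymidine kinase gene Tk1 (0.35 ± 0.08) rose, while Top2a (0.06 ± 0.06) and Mki67 (0.30 ± 0.14) were not called. With number 3 left out all 3 lost their call, and with number 2 left out Ccne1 lost it and Mki67 gained one. For the proliferation list the median log2 ratio in numbers 1, 2 and 3 was 0.21, -0.11 and 0.12, lowest in the number in which Cdkn2c was lowest relative to its control. Its part in the Cdkn2c values was not tested.

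**Figure D4:**
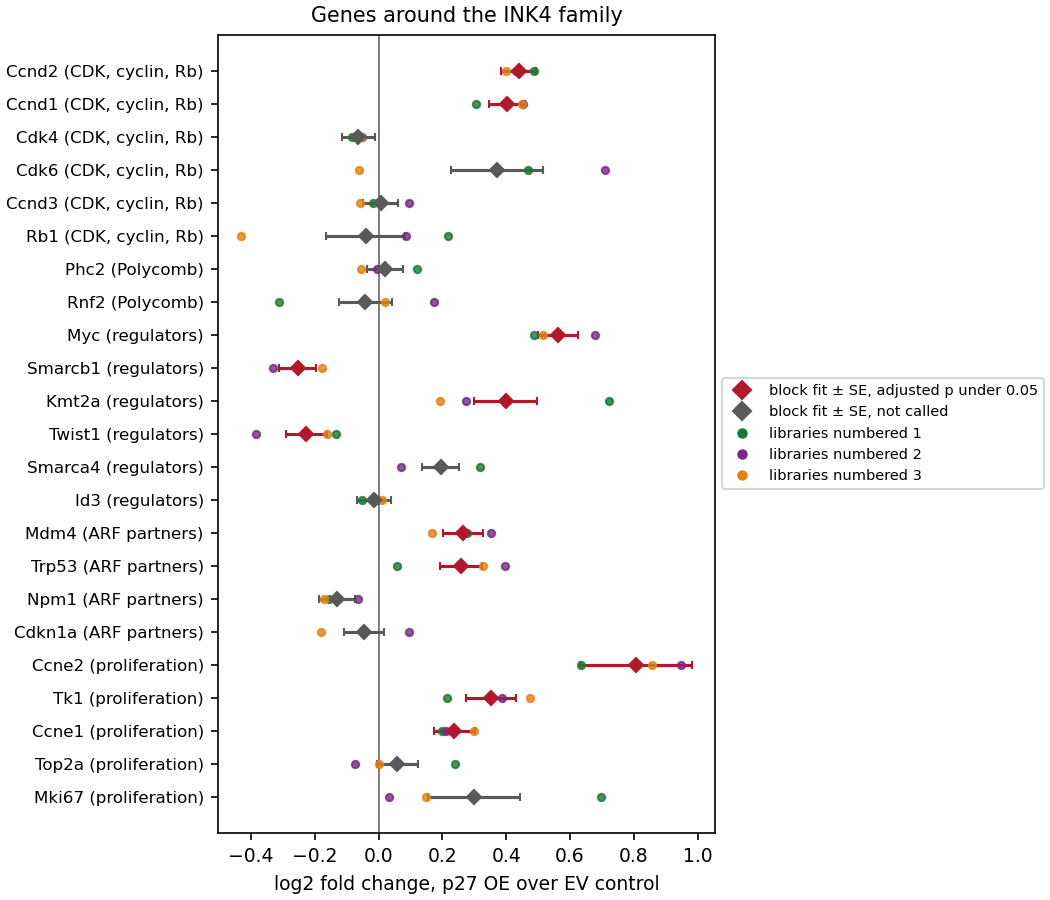
Log2 fold change, p27 OE over EV control (horizontal axis), of the named genes around the INK4 family, by list. Diamonds give the block fit with its SE, red where the adjusted p was under 0.05, and circles give the numbered pairs. Ccnd2 and Ccnd1 are at 0.44 and 0.40, whereas Cdk4 and Ccnd3 are at -0.06 and 0.01.

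Genes next to the members were compared to see whether a difference extended along the chromosome. Mtap, the methylthioadenosine phosphorylase gene 93389 bases from Cdkn2a, was at 106 ± 3.34 CPM in p27 OE and 102 ± 3.94 CPM in EV control (log2 0.05 ± 0.06 with the block, adjusted p 0.612). Faf1, 9398 bases from Cdkn2c, was lower in p27 OE in the 3 pairs (-0.15 ± 0.06, adjusted p 0.129), at 55.3 ± 6.20 CPM in p27 OE and 61.3 ± 5.01 CPM in EV control. Kri1, a ribosome biogenesis gene 440 bases from Cdkn2d on the same strand, went the other way from Cdkn2d: it was at 22.8, 23.8 and 24.7 CPM in p27 OE 1, 2 and 3, against 19.9, 21.2 and 21.0 CPM in EV control (0.20 ± 0.07, adjusted p 0.121). Its groups did not overlap, yet neither fit called it. The neighbours Dmrta1, 4930522H14Rik and Ap1m2 did not pass the filter on low counts.

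Genes with the profile closest to each member were sought among 10605 tested genes of at least 5 CPM, by the root mean square difference of mean-centred log2 CPM over the 6 libraries. The closest to Cdkn2a were Stoml1, Cnpy4 and Memo1, at 0.02 each, and to Cdkn2b Mul1, Atp6v0e and Nus1, at 0.02 to 0.03. The closest to Cdkn2d were Cacng7, Rplp1 and Rps15, at 0.02 to 0.03, of which Rplp1 and Rps15 encode ribosomal proteins. The closest to Cdkn2c were the axonemal dynein gene Dnah1, at 0.07, and Chst1 and Bbs1, at 0.09 each, against a median of 0.33 over the genes compared. Dnah1 was at 5.10, 3.31 and 4.37 CPM in p27 OE 1, 2 and 3, against 6.83, 5.85 and 5.71 CPM in EV control. These genes were picked from many for their likeness over the same libraries, so a difference between the groups that resembles the member's is built into the choice. Within the family, Cdkn2a and Cdkn2b differed least, by 0.13, and Cdkn2b and Cdkn2c most, by 0.42.

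**Figure D5:**
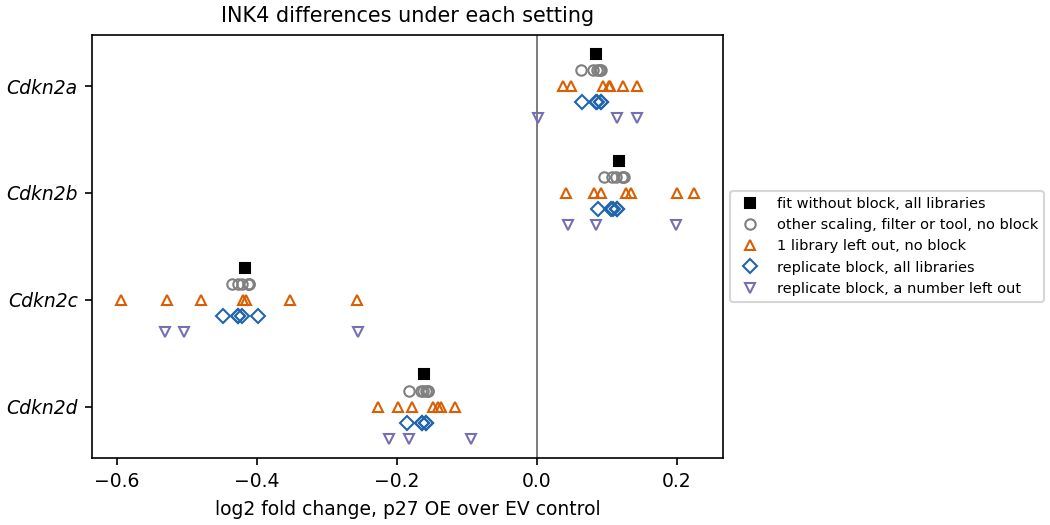
Log2 fold change, p27 OE over EV control (horizontal axis), of each INK4 gene under each setting tried, by marker type. Each gene keeps its sign, while leaving out 1 library moves Cdkn2c between -0.59 and -0.26 and Cdkn2b between 0.04 and 0.22. The upward triangles, labelled as 1 library left out, also hold the fit without both libraries numbered 1. That setting was chosen after the data were seen and puts Cdkn2a at 0.14.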

How the data were processed

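Libraries were made from column-extracted RNA of mouse embryonic fibroblasts with a TruSeq RNA kit (version 2), as the labels' protocols state, and kits of this kind do not mark strand. The authors deposited 1 table of raw counts for 24062 gene symbols and 6 libraries. The submitters' processing notes name Subread's featureCounts 1.4.6, Bowtie2 2.2.6 and TopHat2 2.0.14, and build mm10. The annotation and the handling of multiply mapped reads were not given in the sources used here.

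Genes were filtered with edgeR's filterByExpr (minimum count 10, total 15), scaled by TMM and tested with edgeR 4.0.16 in R 4.3.3 (quasi-likelihood, two-sided, Benjamini-Hochberg over 14090 genes, threshold 0.05), without a term for the library number. SE came from the F statistic, and intervals cover the fit, or counting error only where called Poisson. In the fit with the block, library number was added. Deviations from group means correlated at 0.77, 0.42 and 0.54 between libraries numbered 1, 2 and 3, each above 0.1. Numbers 2 and 3 also correlated across (0.41 and 0.39), so the check cannot tell which of them belong together. The pairing of numbers 2 and 3 therefore rests on the shared numbers alone. Alternatives were RLE and upper-quartile scaling, other filters, DESeq2 1.42.0, voom in limma 3.58.1 and leaving out libraries. On simulated data, only the recovery of the median log2 fold change was required, and no limit was set on calls.

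Members and lists were chosen with earlier results of these data known. Of each list, the genes named were those called (at most 6) and the 2 with the most counts; a fixed set of kinases, cyclins and Rb1, the nearest coding genes and the 3 closest profiles were also named. Exon lengths came from GENCODE M21 and promoters from RefSeq, where all 4 members matched.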

Additional observations from a re-analysis of the deposited data

How the results depend on the processing

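Each INK4 gene kept its direction under all settings tried. Leaving out 1 library, the log2 fold change ran from 0.04 to 0.12 for Cdkn2a, 0.04 to 0.22 for Cdkn2b, -0.59 to -0.26 for Cdkn2c and -0.23 to -0.12 for Cdkn2d, and none was called. For Cdkn2b the extremes came without p27 OE 2 and without p27 OE 1, and for Cdkn2c without p27 OE 1 and without p27 OE 2. The replicate block changed no member's call: Cdkn2a had a paired log2 fold change of 0.09, Cdkn2b 0.11, Cdkn2c -0.43 and Cdkn2d -0.16. With the block and a number left out, Cdkn2a ran from 0.0016 to 0.14 and Cdkn2d from -0.21 to -0.09, never called. Cdkn2b ran from 0.04 to 0.20 and Cdkn2c from -0.53 to -0.26, both called only without number 1 (edgeR adjusted p 0.0400 and 0.0379). The fit without number 1 called 12.4% of all genes. The log2 ratio of Cdkn2b to Cdkn2a per kilobase, 0.25, became -0.21 with the shortest and -0.14 with the longest transcript; this setting, and leaving out number 1 without the block, were chosen after seeing the data.

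Cdkn1b, at 3.60 and not called in edgeR without the block (adjusted p 0.180), was called by DESeq2 (3.61), by DESeq2 and limma-voom with the block (3.49 and 3.49), without p27 OE 2 (leave-one-out range 3.11 to 3.81) and with the block without number 2 (3.09; range 3.09 to 3.72). Over all genes 0 were called in edgeR, 1 with no filter, 89 with DESeq2 and 0 or 1 with a library left out. With the block the number was 1047, with RLE scaling 1042, with upper-quartile scaling 1219, with DESeq2 830, with limma-voom 829, and 1741, 928 and 330 without number 1, 2 or 3. Without number 1 and without the block it was 1339, and Cdkn1b had 3.83. With upper-quartile scaling and the block 483 were higher and 736 lower, against 535 and 512 with TMM. Of 78 pathway genes 0 were called in edgeR, 1 with DESeq2, 11 with the block, 10 and 11 with RLE and upper-quartile scaling, 9 each with DESeq2 and limma-voom, 15, 10 and 4 without number 1, 2 or 3, and 10 without number 1 and without the block. Ccnd1, Ccnd2, Myc and Kmt2a were called with the block when number 2 or 3 was left out, and Mdm4, Trp53, Smarcb1, Twist1 and Ccne1 in neither case. With the block, calls were lost for Twist1 with RLE scaling and for Kmt2a and Ccne1 with upper-quartile scaling. They were also lost for Twist1 and Ccne1 with DESeq2 and for Trp53 and Twist1 with limma-voom. Pcgf2 and Phc1 gained a call with upper-quartile scaling. Without number 1, Pcgf2, Phc1, Jun and Ets1 gained one with the block, and without number 2, E2f3, Mki67, Smarca4 and Huwe1 did. The cause was not tested. With 176 to 467 counts per library, Cdkn2c is the member whose value depth limits most.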
